A study of Mus musculus with 12 samples.

Results

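The muscleblind family consists in the mouse of Mbnl1, Mbnl2 and Mbnl3, and all 3 of these genes are among the 24421 gene symbols counted in this study. They were chosen by name. All 3 passed the filter on low counts that left 15622 genes for testing. Gene expression was measured by sequencing of polyadenylated RNA from the dorsal hippocampus of male mice of a mixed 129sv/C57BL/6j strain, aged 4 to 5 months. The 12 libraries formed 4 groups of 3: Mbnl2 WT house controls, Mbnl2 WT trained mice, Mbnl2 KO house controls and Mbnl2 KO trained mice. Every animal, controls included, shared strain, sex and age range. The labels do not give the targeted allele, the cells in which the gene was lost, the training task or the interval between training and dissection. The titles carry a separate number for each library, but no label states that each came from its own animal. P-values therefore measure the spread between these libraries, and the spread may in part be technical.

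Muscleblind proteins bind RNA through pairs of zinc finger domains and recognise short motifs rich in YGC. They regulate alternative splicing, polyadenylation site use and RNA localization. In myotonic dystrophy, transcripts with expanded CUG or CCUG repeats bind muscleblind proteins and take them away from their normal targets. MBNL1 is best known for its roles in skeletal muscle and heart, MBNL2 is regarded as the main member in adult brain, and MBNL3 is mostly found in placenta and in regenerating or developing tissue. In the brain, loss of Mbnl2 is known to shift adult splicing patterns towards fetal ones, and Mbnl1 is known to compensate in part.

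Mbnl1 (ENSMUSG00000027763.13) lies at chr3:60472830-60629750 on the plus strand of mm10, the same assembly as GRCm38. Mbnl2 (ENSMUSG00000022139.17) lies at chr14:120275669-120431697 on the plus strand. Mbnl3 (ENSMUSG00000036109.17) lies at chrX:51117269-51206532 on the minus strand. In the GENCODE annotation they have 14, 6 and 4 coding transcripts and 18717, 11993 and 8743 bases of exon. The counts here add up reads over all exons of a gene. They therefore do not say which transcripts were present.

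Short cassette exons of the family show how alike the paralogs are where their own splicing is regulated. A 54-base exon, which encodes part of a nuclear localization signal and whose inclusion muscleblind proteins are known to repress in their own transcripts, is present in 5 of 14 coding transcripts of Mbnl1, in 3 of 6 of Mbnl2 and in 0 of 4 of Mbnl3. The following are the exon of Mbnl1 (chr3:60614683-60614736, plus strand) and that of Mbnl2 (chr14:120395712-120395765, plus strand), with capitals for the 8 bases that differ from Mbnl1 (85.2% identity). The sequences are those of GENCODE transcripts on GRCm38, written 5′ to 3′.
Mbnl1 54-base exon: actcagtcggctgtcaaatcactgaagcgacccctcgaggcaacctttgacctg
Mbnl2 54-base exon: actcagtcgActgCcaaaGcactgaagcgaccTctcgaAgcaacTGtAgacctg

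A 36-base exon, linked in MBNL1 to self-association of the protein, is annotated in all 3 genes, in 7 of 14 coding transcripts of Mbnl1, 2 of 6 of Mbnl2 and 1 of 4 of Mbnl3. It lies at chr3:60621423-60621458 (plus strand) in Mbnl1, at chr14:120403336-120403371 (plus strand) in Mbnl2 and at chrX:51126126-51126161 (minus strand) in Mbnl3. Capitals mark the 5 bases of Mbnl2 and the 10 bases of Mbnl3 that differ from Mbnl1.
Mbnl1 36-base exon: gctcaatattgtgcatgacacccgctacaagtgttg
Mbnl2 36-base exon: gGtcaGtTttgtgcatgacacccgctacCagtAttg
Mbnl3 36-base exon: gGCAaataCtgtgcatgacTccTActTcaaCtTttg

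The coding sequence starts in an exon that holds its first 174 bases in Mbnl1 (chr3:60529631-60529804, plus strand) and in Mbnl2 (chr14:120325239-120325412, plus strand). These stretches are shown because they bear on whether reads of the paralogs could be confused. They differ at 46 positions, in capitals in Mbnl2 (73.6% identity).
Mbnl1 start of coding sequence: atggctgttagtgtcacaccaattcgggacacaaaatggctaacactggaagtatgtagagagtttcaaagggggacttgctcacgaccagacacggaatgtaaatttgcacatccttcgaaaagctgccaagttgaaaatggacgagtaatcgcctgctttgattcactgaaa
Mbnl2 start of coding sequence: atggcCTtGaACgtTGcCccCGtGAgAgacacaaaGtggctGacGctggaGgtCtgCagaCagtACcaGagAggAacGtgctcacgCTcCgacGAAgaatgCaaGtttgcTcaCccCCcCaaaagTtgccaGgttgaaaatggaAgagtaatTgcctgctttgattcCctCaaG

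Over an alignment of coding sequences, Mbnl1 and Mbnl2 were identical at 74.3% of bases, Mbnl1 and Mbnl3 at 71.4%, and Mbnl2 and Mbnl3 at 70.1%. Over all annotated transcripts of a pair, at any position, the longest shared run was 26 bases for Mbnl1 with Mbnl2 or Mbnl3. It was 15 bases for Mbnl2 with Mbnl3. No window of 30, 50 or 75 bases in the annotated transcripts was shared between members (0 of 19099 windows of 30 bases in Mbnl1, 0 of 12052 in Mbnl2 and 0 of 8842 in Mbnl3). Of those 30-base windows, 0.450% in Mbnl1, 0.805% in Mbnl2 and 1.61% in Mbnl3 were shared with transcripts of some other gene. The 3 counts can therefore be compared as counts of separate genes. For Mbnl2, the overlapping antisense gene Gm26679 shares 86 bases of exon. It is not a row of the count files, and no source used here states whether counting was by strand.

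Total counts per library ran from 19737929 to 27427076, and 17493 to 18300 genes had at least 1 count. On the scale used here, CPM (counts scaled to library size, with TMM factors), 3 counts correspond to 0.105 to 0.154 CPM. This floor and the intervals below cover counting error only. Markers of dorsal hippocampal neurons were present in every library. The 8 markers of CA1 pyramidal neurons summed to 341 to 701 CPM in WT and 490 to 900 CPM in KO libraries, and 10 markers of dentate granule neurons to 645 to 1560 CPM in WT and 425 to 1090 CPM in KO libraries. Libraries stood apart in transcripts of neighbouring tissue. Choroid plexus markers summed to 46.4 to 15063 CPM in the WT libraries and 65.0 to 4737 CPM in the KO libraries, with none of the 10 markers at 0 in any library. Thalamus markers summed to 197 to 639 CPM in WT and 161 to 557 CPM in KO libraries, with 1 of the 10 markers, Gbx2, at 0 in 1 library. Oligodendrocyte markers summed to 2910 to 12790 CPM in WT and 3861 to 14157 CPM in KO libraries, with none of 10 at 0. The 3 libraries with the highest thalamus marker sums, all house controls (WT replicates 2 and 3 and KO replicate 3), were left out together in an alternative fit. KO replicate 2 of each treatment, with 839 and 1182 CPM of striatum and septum markers, was left out in another. That other fit kept WT house control replicate 3, which had 812 CPM of these markers. The remaining libraries had 95.6 to 226 CPM of them. Library numbers were unbroken from 1 to 12. They were divided here into 2 runs by the order of the groups, the first with 2 libraries per group and the second with 1 per group. No label states that these runs were batches. Title numbers were 1357 to 1365 in the second run. In the first run they were 1188 to 1196 in the house controls and WT trained replicate 1. They were 1231 to 1240 in WT trained replicate 2 and both KO trained libraries. Within the first run, title number and training therefore cannot be told apart in KO.

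Mbnl2, the gene named in the genotype label, was the most abundant member of the family and stood higher in the libraries labelled KO. Its level in WT was 338, 315 and 324 CPM in the 3 house controls, and 360, 363 and 365 CPM in the 3 trained mice. In KO it was 488, 470 and 454 CPM in the 3 house controls, and 509, 473 and 542 CPM in the 3 trained mice. Every KO library was above every WT library, and the gap between the highest WT and the lowest KO library was wider than the range within any of the 4 groups. Non-overlap of 6 KO and 6 WT libraries was seen in 1.78% of all genes tested. Group means were 326 ± 11.7 and 363 ± 2.50 CPM in WT house controls and trained mice (SD, n = 3 each) and 471 ± 17.3 and 508 ± 34.4 CPM in KO house controls and trained mice. The counts behind these values were 6577 to 13291 per library, so counting error was 0.867% to 1.23%. The coefficient of variation between libraries was above this in 3 of the 4 groups (3.58%, 3.68% and 6.78%) and below it in WT trained mice (0.689%).

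**Figure D1:**
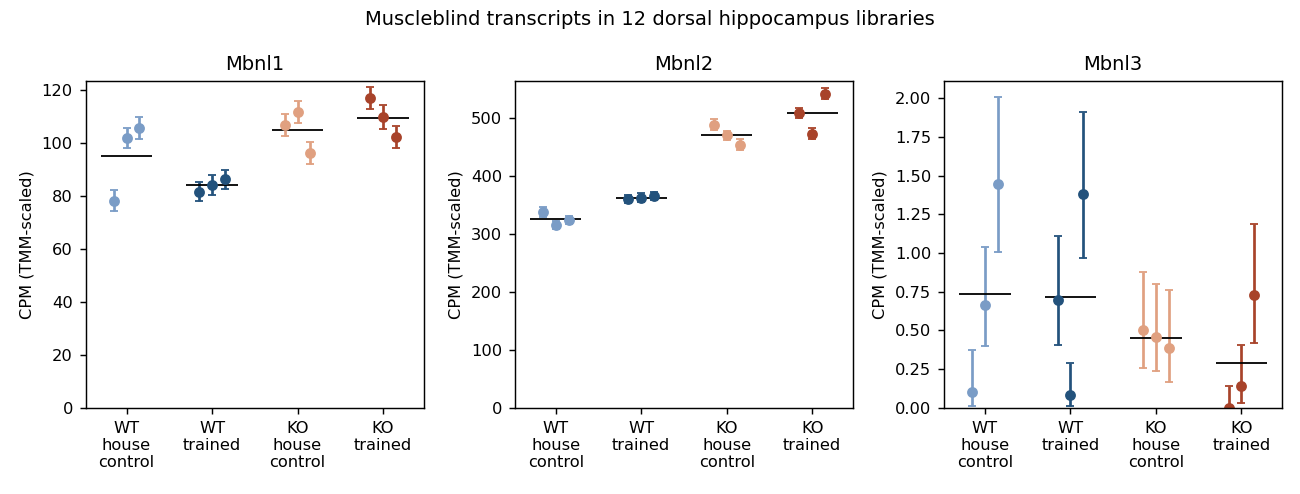
Level of Mbnl1, Mbnl2 and Mbnl3 (CPM, TMM-scaled; separate vertical scales that start at 0) in each of the 12 libraries, as points with 95% Poisson intervals for counting error, and the mean of each group as a line. All 6 KO libraries are above all 6 WT libraries for Mbnl2 (454 to 542 against 315 to 365 CPM), Mbnl1 is separate only in trained mice, and no Mbnl3 value is above 1.45 CPM.

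With both treatments averaged, Mbnl2 was 1.42-fold higher in KO than in WT libraries (log2 fold change 0.51 with an SE of 0.05; edgeR quasi-likelihood F test, Benjamini-Hochberg adjusted p = 0.00626 over 15622 genes). The unadjusted 95% interval of the fold was 1.31 to 1.54. In bulk tissue, more cells of a type and more RNA per cell cannot be told apart. CA1 markers also had a higher mean in KO, at 744 ± 180 CPM against 512 ± 146 CPM in WT (SD, n = 6), and dentate granule markers a lower one, at 760 ± 256 against 1043 ± 358 CPM. In trained mice the CA1 sums did not overlap, at 900, 792 and 852 CPM in KO and 701, 368 and 508 CPM in WT, while in house controls they did. Of single genes, 14% had no overlap between KO and WT trained mice. The part of tissue makeup in the Mbnl2 result was not tested. Over 6 libraries of each genotype the means were 344 ± 21.7 CPM in WT and 489 ± 31.7 CPM in KO. In this mean genotype effect 90 genes were called, 0.576% of those tested, of which 60 were higher in KO (0.384% of those tested). Mbnl2 was the only one of the 3 members among them and ranked 3 of all genes by p. The call was lost within the first run of library numbers alone, where the log2 fold change was 0.50 at an adjusted p of 0.34 (edgeR, 8 libraries). In the second run, with 1 library per group and no test, WT had 324 and 365 CPM and KO had 454 and 542 CPM. Without the 3 house control libraries with the highest thalamus marker sums the log2 fold change was 0.49 and the call was lost. That fit keeps 1 WT house control.

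Within each treatment the difference in Mbnl2 had much the same size but did not pass the edgeR threshold. In house controls the log2 fold change was 0.53 (SE 0.07, adjusted p = 0.0888), and in trained mice 0.48 (SE 0.07, adjusted p = 0.128). The house control value passed without WT house control replicate 1 (0.56, adjusted p = 0.0446). Only 2 genes were called by edgeR in each comparison, 0.0128% of those tested in house controls and 0.0128% in trained mice, beside 1668 and 1008 genes at an unadjusted p under 0.05. KO and WT libraries of 3 against 3 did not overlap for Mbnl2 in either treatment, as was the case for 13% of all genes in house controls and 14% in trained mice. DESeq2 on the same counts called Mbnl2 in both (0.53, adjusted p = 5.32e-13 and 0.49, adjusted p = 3.3e-11), among 184 (1.18%) and 98 (0.627%) genes. The authors' deposited tables give Mbnl2 a log2 fold change of 0.53 with an adjusted p of 6.26e-08 in house controls, where 0.558% of genes are called, and of 0.48 with an adjusted p of 2.97e-05 in trained mice, where 0.834% are called.

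The count over all exons of Mbnl2 was thus not reduced under the KO label. It does not check that label, since the allele is not given. For scale, in the annotated transcript Mbnl2-201 the exon with the start codon (exon 2 of 9) has 619 bases, 13.6% of the transcript and 5.16% of all exon bases of the gene. The last exon has 2763 bases, 60.7% of the transcript. A count of the whole gene does not show where in the gene its reads lie. Directions here are those of the labels.

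Differences in Mbnl2 between trained and house control libraries were smaller than those between genotypes, and none passed the threshold. In WT, all 3 trained libraries were above all 3 house controls (360 to 365 against 315 to 338 CPM), a separation also seen in 14.8% of all genes. The log2 fold change was 0.16 (SE 0.07; edgeR unadjusted p = 0.0568, adjusted p = 0.502). In KO, trained and house control libraries overlapped (473 to 542 against 454 to 488 CPM), as they did for all but 7.88% of genes, and the log2 fold change was 0.11 (SE 0.07, edgeR adjusted p = 1.00). Averaged over genotypes it was 0.13 (SE 0.05; edgeR unadjusted p = 0.0268, adjusted p = 0.426), with an unadjusted 95% interval of 0.02 to 0.25. The training response in KO minus that in WT was -0.05 (SE 0.10, edgeR adjusted p = 1.00), with an interval of -0.28 to 0.18. In the WT, KO and mean training comparisons and in the interaction edgeR called 0 genes (0% of those tested), with 1534, 471, 1744 and 235 genes at an unadjusted p under 0.05 and 10 (0.064%), 7 (0.0448%), 69 (0.442%) and 0 (0%) genes called by DESeq2. None of the 3 members was among those DESeq2 genes. In the authors' deposited tables Mbnl2 has a training log2 fold change of 0.16 (adjusted p = 0.372) in WT, where 0.117% of genes are called, and 0.12 (adjusted p = 1.00) in KO, where 0.0716% are called.

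**Figure D2:**
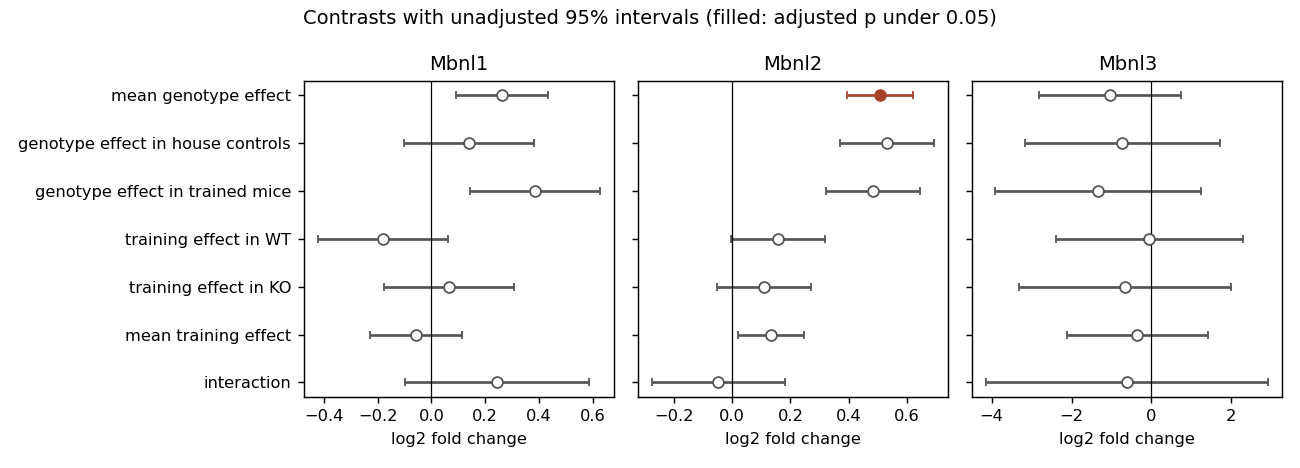
Log2 fold change of Mbnl1, Mbnl2 and Mbnl3 (separate horizontal scales) in the 7 contrasts of the edgeR fit, with unadjusted 95% intervals; genotype effects are KO over WT, training effects trained over house control, and the interaction the training effect in KO minus that in WT. The mean genotype effect of Mbnl2 (0.51, filled point) is the only one of these 21 values past an adjusted p of 0.05, and the Mbnl3 intervals span several log2 units.

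Mbnl1, the paralog known to act on many of the same splicing targets, had a higher mean in KO libraries, but the difference did not pass the edgeR threshold. The WT house controls had 78.2, 102 and 106 CPM and the KO house controls 107, 112 and 96.2 CPM. These overlapped: the WT house controls were themselves widely spread. In trained mice the WT libraries had 81.5, 84.1 and 86.4 CPM and the KO libraries 117, 110 and 102 CPM. Trained KO libraries were all above trained WT libraries; 14% of genes had no overlap between these groups. Counts were 1520 to 3055 per library, with a counting error of 1.81% to 2.56%.

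The mean genotype effect on Mbnl1 was a log2 fold change of 0.26 (SE 0.08; edgeR unadjusted p = 0.0064, adjusted p = 0.16), or 1.20-fold, with an unadjusted 95% interval of 1.07 to 1.35. DESeq2 placed it just inside the threshold (0.26, adjusted p = 0.047) in a comparison in which it called 716 genes, 4.58% of those tested. In trained mice the log2 fold change was 0.38 (SE 0.11; edgeR unadjusted p = 0.00519, adjusted p = 0.5), with an interval of 0.14 to 0.63. In house controls it was 0.14 (SE 0.11, edgeR adjusted p = 0.661), with an interval of -0.10 to 0.38. The difference between these genotype effects is the interaction, 0.24 (SE 0.15; edgeR unadjusted p = 0.143, adjusted p = 1.00), so the genotype effect was not shown to differ between treatments. The authors' deposited tables call Mbnl1 in trained mice (log2 fold change 0.38, adjusted p = 0.011), where 0.834% of genes are called. They do not call it in house controls (0.14, adjusted p = 0.886). DESeq2 on all 12 libraries did not call Mbnl1 in trained mice (0.39, adjusted p = 0.117).

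The spread of Mbnl1 within WT house controls went along with markers of neighbouring tissue. WT house control replicates 2 and 3, with 102 and 106 CPM of Mbnl1, had thalamus marker sums of 537 and 639 CPM and oligodendrocyte marker sums of 12169 and 12790 CPM. Replicate 1, with 78.2 CPM of Mbnl1, had 255 and 3373 CPM of these markers. The other WT libraries, at 81.5, 84.1 and 86.4 CPM of Mbnl1, had thalamus sums of 197 to 367 CPM. Their oligodendrocyte sums varied more, at 7446, 2910 and 8162 CPM in the same order. Among KO libraries the picture was not the same: KO house control replicate 3 had a thalamus sum of 557 CPM and the lowest Mbnl1 level of its genotype, 96.2 CPM. Without WT replicates 2 and 3 and KO replicate 3 of the house controls, the mean genotype effect on Mbnl1 was 0.43 in place of 0.26. WT house control replicate 1 is then the only library of its group. At 78.2 CPM it had the lowest Mbnl1 level of all 12 libraries, so the larger value rests on it. The part of these other cells and regions in the level of Mbnl1 was not tested.

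Mbnl1 did not pass any training comparison. The log2 fold change was -0.18 in WT (SE 0.11, edgeR adjusted p = 0.522) and 0.06 in KO (SE 0.11, edgeR adjusted p = 1.00), with intervals of -0.42 to 0.06 and -0.18 to 0.31. The WT value had the opposite sign (0.11) without the 3 house control libraries named above, as had the mean training effect (-0.06 with all libraries, 0.06 without) and the interaction (-0.10 without). That fit leaves WT house control replicate 1 as the only library of its group, assumed to vary like the other groups, so these signs rest on it.

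Mbnl3, known mainly from placenta and regenerating tissue, was close to the limit of detection. The WT house control libraries held 2, 19 and 35 counts and the WT trained libraries 17, 2 and 36 counts. The KO house control libraries held 12, 12 and 8 counts and the KO trained libraries 0, 3 and 16 counts. Groups overlapped in every comparison, and in 3 of the 4 groups the libraries differed more among themselves than any group means did. As levels, WT libraries had 0.728 ± 0.592 CPM and KO libraries 0.369 ± 0.263 CPM (SD, n = 6 each). The library at 0 counts allows a level of up to 0.115 CPM at 3 counts.

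The mean genotype effect on Mbnl3 was -1.03 on the log2 scale (SE 0.80; edgeR adjusted p = 0.588), with an unadjusted 95% interval of -2.81 to 0.74 that takes in both directions. Its edgeR biological coefficient of variation was 93.5%, against 8.30% for Mbnl2 and a median of 15.4% over all genes. Its sign turned without the 3 house control libraries rich in neighbouring tissue (0.41), where the WT house control group is 1 library with 2 counts. The authors' deposited tables give Mbnl3 no adjusted p for either genotype comparison.

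Mbnl3 counts and choroid plexus markers were both high in some of the same libraries. WT house control replicate 3 and WT trained replicate 3, with 35 and 36 counts of Mbnl3, had choroid plexus marker sums of 15063 and 7832 CPM, and WT house control replicate 2, with 19 counts, had 7983 CPM. In the 4 libraries with choroid plexus sums of 46.4 to 106 CPM, Mbnl3 had 2, 2, 12 and 0 counts. The match was not complete: KO trained replicate 2 had 3 counts of Mbnl3 and 4737 CPM of choroid plexus markers. The part of choroid plexus in the Mbnl3 counts was not tested.

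**Figure D3:**
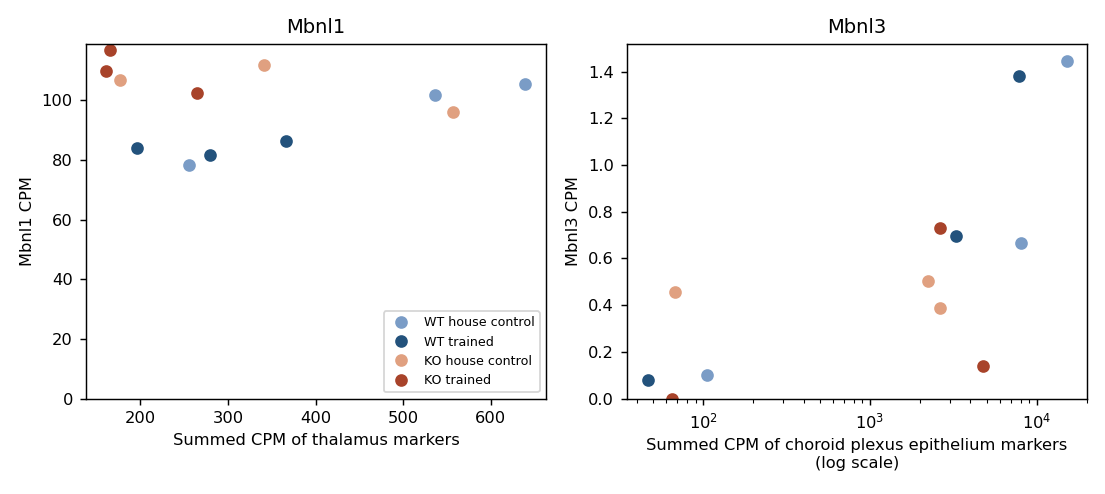
Level of Mbnl1 against the summed CPM of 10 thalamus markers (left) and of Mbnl3 against the summed CPM of 10 choroid plexus markers (right, log scale), 1 point per library, coloured by group. The WT house control libraries with 537 and 639 CPM of thalamus markers have more Mbnl1 (102 and 106 CPM) than the other 4 WT libraries, and the 2 highest Mbnl3 levels are in libraries with 7832 and 15063 CPM of choroid plexus markers.

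The order of the 3 members was the same in every library. Per kilobase of exon, which allows levels of different genes to be compared, Mbnl2 had 34.8 ± 6.67 CPM per kb, Mbnl1 5.26 ± 0.692 and Mbnl3 0.0627 ± 0.0544 (SD over all 12 libraries). On this scale Mbnl2 stood at percentile 91.5 of the 15037 tested genes with an annotated length, Mbnl1 at 53.3 and Mbnl3 at 0.638, where the median gene had 4.62 CPM per kb. With the length of the longest coding transcript instead (4552, 5655 and 4649 bases), the levels were 91.6 CPM per kb for Mbnl2, 17.4 for Mbnl1 and 0.118 for Mbnl3, in the same order. Neighbours in this order were separated in each library, with the lowest Mbnl2 level (26.3 CPM per kb of exon) above the highest Mbnl1 level (6.25) and the lowest Mbnl1 level (4.18) above the highest Mbnl3 level (0.165).

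The family as a whole was more abundant in KO libraries, most of it through Mbnl2. The summed level of the 3 genes was 416, 418 and 431 CPM in WT house controls, 443, 447 and 453 CPM in WT trained mice, 596, 582 and 550 CPM in KO house controls and 626, 583 and 645 CPM in KO trained mice. No KO library overlapped a WT library, as was so for Mbnl2 alone and for 1.78% of all genes tested. Mbnl1 and Mbnl3 by themselves did overlap, so the separation of the sum largely repeats that of Mbnl2. Means were 597 ± 33.7 CPM in KO and 435 ± 15.4 CPM in WT (SD, n = 6), a difference of 162 CPM (two-sided exact permutation test over 924 splits, p = 0.00216, the smallest this design allows; 0.00866 after Benjamini-Hochberg adjustment over 4 tests). Within the first run of library numbers the difference was 166 CPM, where the exact permutation test on 4 against 4 libraries gave an adjusted p of 0.114 and could not go lower. The difference between trained and house control libraries was 33.8 CPM (adjusted exact permutation p = 0.535). With splits made only within a genotype, which leaves the large genotype difference out of the comparison, the adjusted exact p of that training difference was 0.03. Without the 3 house control libraries named above, 1 WT and 2 KO house controls remain beside 3 trained mice of each genotype, so treatments were then compared within genotypes. Trained libraries were 31.1 CPM higher in WT and 28.7 CPM higher in KO, a mean of 29.9 CPM (adjusted exact permutation p = 0.15 over 40 splits). The mean difference between genotypes, taken within treatments in the same way, was 171 CPM. It was the largest difference among its 60 splits, so the exact permutation test could not go lower.

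Mbnl2 gave most of the family's counts, and its share was lowest in 2 WT house control libraries. In WT house controls Mbnl2 made up 81.2%, 75.5% and 75.1% of the counts of the 3 genes, and in WT trained mice 81.4%, 81.2% and 80.6%. In KO house controls the shares were 82.0%, 80.7% and 82.5%, and in KO trained mice 81.3%, 81.1% and 84.0%. Exact (Clopper-Pearson) 95% intervals of single libraries had half-widths of 0.601 to 0.857 percentage points, for counting error only. The 2 low libraries, WT house control replicates 2 and 3, had the highest thalamus and oligodendrocyte marker sums among WT libraries. KO libraries with high sums did not have such low shares. KO house control replicate 3 had a thalamus sum of 557 CPM and a share of 82.5%. KO house control replicate 2 had the highest oligodendrocyte sum of all libraries, 14157 CPM, and a share of 80.7%. The part of thalamus and oligodendrocytes in the share was not tested. The mean share was 81.9% ± 1.19 in KO and 79.2% ± 3.01 in WT (SD, n = 6), a difference of 2.77 percentage points that did not pass after adjustment (exact permutation p = 0.0455, adjusted p = 0.0909). Taken within treatments, it was 0.617 percentage points without the 3 house control libraries (adjusted exact permutation p = 0.556), and with all other libraries it passed without WT trained replicate 1 (3.22 points, adjusted exact permutation p = 0.0303). Trained and house control libraries differed by 2.12 percentage points (adjusted exact permutation p = 0.323).

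**Figure D4:**
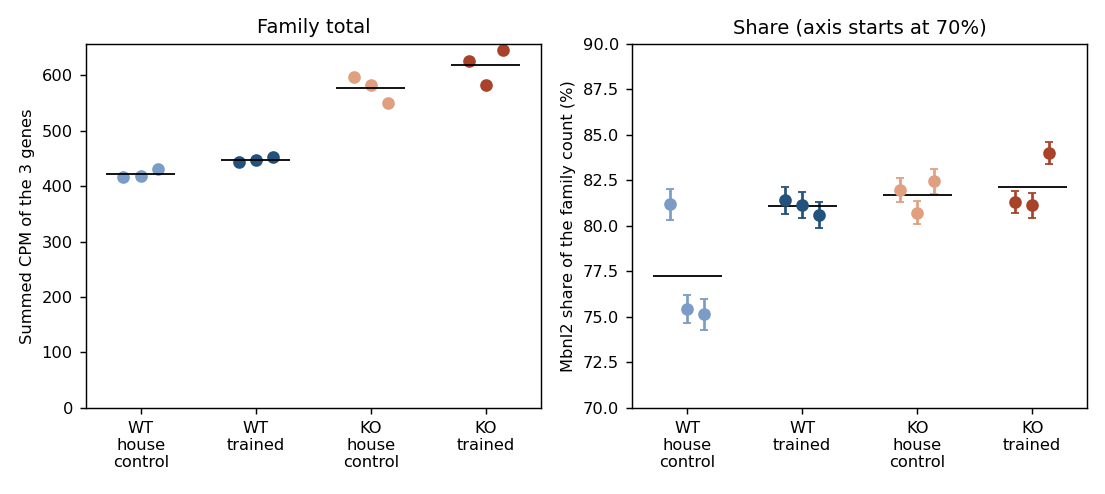
Summed level of the 3 muscleblind genes (left, CPM, axis from 0) and share of Mbnl2 in their summed count (right, percent, axis from 70) in each library, with the mean of each group as a line and, on the right, exact 95% intervals for counting error. The sums are 416 to 453 CPM in WT and 550 to 645 CPM in KO libraries, whereas the shares lie between 80.6% and 84.0% except in WT house control replicates 2 and 3 (75.5% and 75.1%).

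Genes whose level followed that of each member most closely were found by Pearson correlation of log2 CPM over the 12 libraries, among 11191 genes with a mean of at least 5 CPM. Libraries share genotype, treatment and tissue makeup, so these values are descriptions without a test. For Mbnl2 the 5 genes were Apc, which restrains Wnt signalling (r = 0.97), Mgrn1, a ubiquitin ligase (0.97), Ppp2r5b, a regulatory subunit of protein phosphatase 2A (0.95), B3gat3, an enzyme of glycosaminoglycan linker synthesis (0.95), and Ubap2 (0.94). All 5 had higher means in KO, which follows from their choice by likeness to Mbnl2, itself higher in every KO library. In KO against WT, Apc had 557 ± 36.3 against 397 ± 34.3 CPM and Mgrn1 277 ± 13.0 against 216 ± 12.8 CPM (SD, n = 6). After group means were subtracted, r fell to 0.53 for Apc, 0.56 for Mgrn1 and 0.04 for Ppp2r5b, so their likeness to Mbnl2 lay largely between the groups.

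For Mbnl1 the genes were Cds1, an enzyme of phosphatidylinositol synthesis (r = 0.87), Commd6 (0.87), Ankrd63 (0.84), the cytokine receptor kinase Jak2 (0.83) and the sterol-binding protein Osbp (0.82). Here r after subtraction of group means stayed between 0.64 and 0.87. For Mbnl3 they were Pigp, which acts in GPI anchor synthesis (r = 0.93), Emp2 (0.90), Nelfe, a subunit of the negative elongation factor (0.89), Trmt2b, a tRNA methyltransferase (0.88), and Parp4 (0.88). Trmt2b transcripts also share 30-base windows with those of Mbnl3. Between members, r was 0.59 for Mbnl1 with Mbnl2 and -0.32 after subtraction of group means. It was -0.07 for Mbnl1 with Mbnl3 and -0.29 for Mbnl2 with Mbnl3.

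Of the genes next to a member on its chromosome, 4 were tested and 0 were called between genotypes, beside 0.576% of all genes. Rap2a, a small GTPase gene 46746 bases beyond the end of Mbnl2, had 134 ± 17.1 CPM in KO and 129 ± 25.7 CPM in WT (SD, n = 6; log2 fold change 0.07, edgeR adjusted p = 0.834). Oxgr1, on the other side of Mbnl2, had 0.0765 to 0.762 CPM and was below the filter. Beside Mbnl1, the purinergic receptor gene P2ry1 had a log2 fold change of -0.15 (edgeR adjusted p = 0.843) and the succinate receptor gene Sucnr1 had 0 counts in every library. Beside Mbnl3, Rap2c and Hs6st2 had log2 fold changes of -0.11 and -0.01 (edgeR adjusted p = 0.403 and 0.993).

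Of 33 RNA-binding proteins that act on neuronal splicing, all tested, 16 had a positive and 17 a negative mean genotype effect, and 0 were called by edgeR, beside 0.576% of all genes. At an unadjusted p under 0.05 were 5 of the 33, beside 14.4% of all genes. Their median log2 fold change was -0.01, the same as over all genes (-0.01, with 48.0% positive). Khdrbs3, which regulates neurexin splicing with its relatives, had the smallest p: 206 ± 19.3 CPM in KO and 166 ± 28.5 CPM in WT (log2 fold change 0.32, edgeR adjusted p = 0.107). Next came Elavl3, a neuronal RNA-binding protein gene (0.19, adjusted p = 0.2), Khdrbs1, which encodes Sam68 (-0.20, adjusted p = 0.274), and Hnrnpf, a binder of G-rich RNA (-0.14, adjusted p = 0.293; all edgeR).

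Transcripts known as splicing targets of muscleblind proteins were measured here at gene level only, which does not show their splicing. Of 27 tested targets other than the members, 17 had a positive mean genotype effect and 10 a negative one. Their median log2 fold change was 0.06, beside -0.01 over all genes, of which 48.0% were positive. The genotype effect was positive for 21 and negative for 6 in house controls, and for 14 and 13 in trained mice. 1 was called by edgeR: Clcn1, the muscle chloride channel gene whose missplicing underlies myotonia, at 2.44 ± 0.883 CPM in KO and 1.03 ± 0.141 CPM in WT (SD, n = 6; log2 fold change 1.23, SE 0.22, edgeR adjusted p = 0.0403), with no overlap between genotypes. That is 1 of 27, beside 0.576% of all genes. The list was chosen with earlier results of these data known, so the 2 shares cannot be compared as independent. Without the 3 house control libraries named above, 1 gene in all was called in this comparison. Csnk1d, a casein kinase gene, also had no overlap, at 140 ± 10.3 CPM in KO and 174 ± 12.2 CPM in WT. It stood just outside the threshold (log2 fold change -0.31, edgeR adjusted p = 0.0585). Non-overlap of KO and WT libraries was seen in 1.78% of all genes tested. Grin1, the obligatory NMDA receptor subunit gene, had 606 ± 56.1 and 500 ± 72.3 CPM (0.28, edgeR adjusted p = 0.173). Of 6 genes tied to microsatellite repeat disease or next to such a repeat, 5 were in the files and 0 were called, beside 0.576% of all genes. Dmwd, beside Dmpk, had the smallest p (log2 fold change 0.17, edgeR adjusted p = 0.273), and Dmpk itself, the myotonic dystrophy kinase gene, had 14.6 ± 3.92 CPM in KO and 18.0 ± 9.67 CPM in WT (-0.29, edgeR adjusted p = 0.728).

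**Figure D5:**
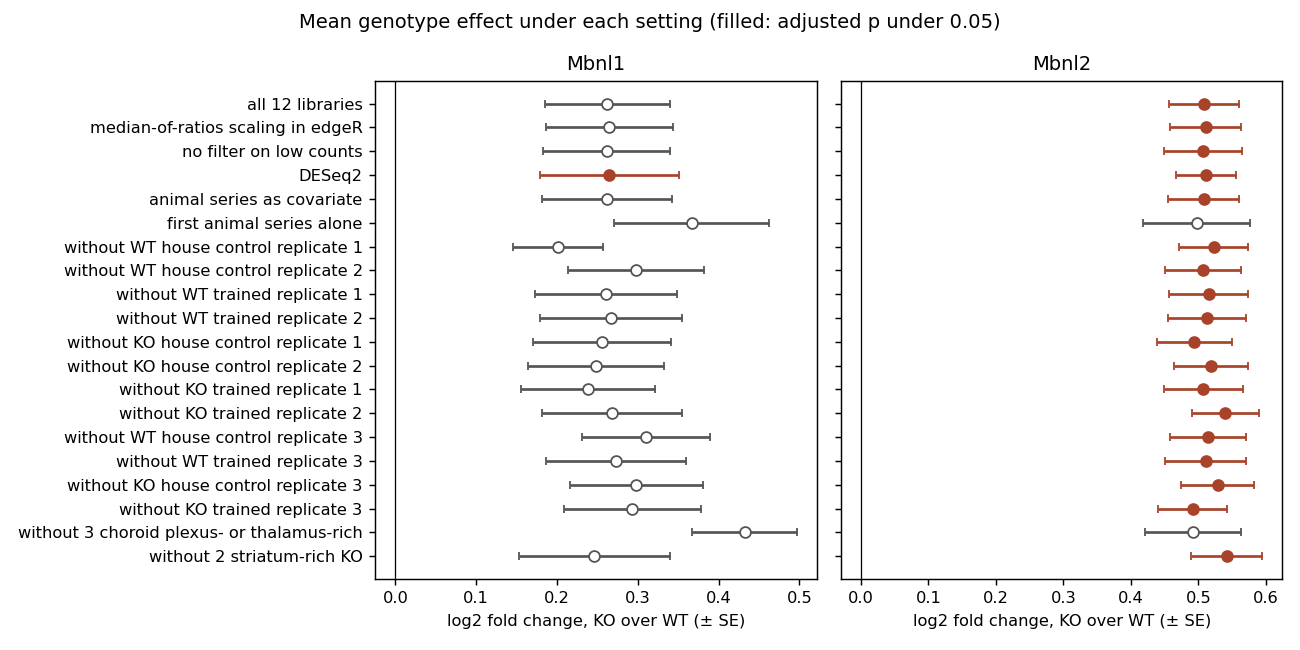
Mean genotype effect on Mbnl1 (left) and Mbnl2 (right) as log2 fold change of KO over WT with its SE, in the fit of all 12 libraries and under each alternative; filled points have an adjusted p under 0.05. The Mbnl2 value stays between 0.49 and 0.54 and loses its call in the first run of library numbers and without 3 house control libraries, while the Mbnl1 value runs from 0.20 to 0.43 and is called by DESeq2 alone.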

How the data were processed

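The authors deposited raw read counts for 24421 gene symbols, 1 file for each of the 12 libraries. Column-purified RNA went through poly(A) selection and an NEBNext Ultra II kit, per the labels' protocols. The build is mm10 and the tools named are HTSeq 0.9.1, TopHat2 2.1.1, Bowtie2 2.3.4.2, DESeq2 1.18.1 and cutadapt 1.18, per the submitters' processing notes. The authors' 4 deposited comparison tables give p-values (raw and adjusted) and, per the file headers, log2 fold changes with their errors. They also hold a score (the test statistic) and a signal (the mean of normalized counts), per the file headers. Only the members' values, and the number of genes called, were taken from them.

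Groups came from the labels. Replicate numbers follow accession order. Members and gene lists were chosen with earlier results of these data known. The test was that of edgeR 4.0.16 in R 4.3.3: filterByExpr (minimum count 10, minimum total 15), TMM scaling, and 1 robust quasi-likelihood fit of 4 group means (8 residual degrees of freedom) with 7 contrasts and Benjamini-Hochberg adjustment over 15622 genes, threshold 0.05. The fit was tested on simulated data. Family sums and shares were compared by exact two-sided permutation (SciPy 1.17.1), adjusted over 4 tests. The alternatives tried were median-of-ratios scaling, DESeq2 1.42.0, omission of the filter, only the libraries compared, the run of library numbers as covariate or the first run alone, and left-out libraries. Named genes were the members, the 5 genes most correlated with each, chromosomal neighbours, and up to 4 genes per list with the smallest p or those called. Other named genes are markers. Coordinates and lengths are those of GENCODE M21 (GRCm38), which matched 96.3% of tested symbols.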

Additional observations from a re-analysis of the deposited data

How the results depend on the processing

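Totals of 19737929 to 27427076 counts give Mbnl1 and Mbnl2 a counting error of at most 2.56% and leave Mbnl3 near its floor. No paired analysis was possible because replicate numbers follow accession order and no label links libraries across groups. Over all alternatives, 457 values kept direction and side of the threshold, 16 changed sign, 6 newly passed and 4 no longer passed; the cause was not tested.

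The Mbnl2 mean genotype effect (0.51) lost its call in the first run of library numbers (0.50, adjusted p 0.34) and without the 3 house control libraries (0.49, 0.208), with a range of 0.49 to 0.54 when 1 library was left out. DESeq2 called Mbnl2 in house controls (0.53) and in trained mice (0.49), and Mbnl1 in the mean genotype effect (0.26). With 1 library left out, Mbnl2 in house controls ran from 0.50 to 0.56, and the Mbnl2 share difference between genotypes from 1.96 to 3.22 points. The summed CPM difference between genotypes did not pass in the first run (166 CPM). Nor did it pass, in an alternative chosen after seeing the data, as the mean within treatments without the 3 house control libraries (171 CPM). In both, the exact permutation test could not go lower. The summed CPM difference between treatments passed with splits within genotypes (33.8 CPM).

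Values that changed sign had not passed the threshold. Without the 3 house control libraries, which leaves 1 WT house control, assumed to vary like the other groups, these were Mbnl1 training in WT (0.11), mean training (0.058) and interaction (-0.10), and Mbnl3 mean genotype (0.41), genotype in house controls (2.16), training in WT (2.75) and mean training (1.00). In the first run it was Mbnl3 genotype in house controls (0.26), and without 2 KO libraries rich in striatum markers the Mbnl2 interaction (0.0047). Ranges with 1 library left out were -0.089 to 0.0086 for the Mbnl2 interaction, and for Mbnl3 -1.21 to 0.16 (genotype in house controls), -2.65 to 0.28 (interaction), -1.38 to 0.091 (mean training) and -0.94 to 0.83 (training in WT).

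Genes called in the mean genotype effect numbered 90, and 716 by DESeq2, 59 without a filter, 166 with the number run as covariate, 2 in the first run, 1 without the 3 house control libraries, 26 without the 2 KO libraries, and 8 to 268 with 1 library left out. In house controls the 2 calls became 184 by DESeq2 and 0 to 12 with 1 left out, and in trained mice 98 and 1 to 2. Training calls rose from 0 to 10 in WT, 7 in KO and 69 in the mean by DESeq2.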
